A study of Mus musculus with 80 samples.

Results

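Muscle stem cells (MuSCs) lie between the myofibre membrane and the basal lamina, and the proteins on their surface tie them to both sides of this niche. Integrins and dystroglycan bind laminin in the basal lamina, cadherins join the stem cell to the myofibre, syndecans carry heparan sulfate chains that hold growth factors, and the calcitonin receptor passes a signal that keeps the cells quiescent. Many of these proteins also serve as antigens for sorting the cells. Here 10 genes were followed, chosen by name as surface genes of quiescent MuSCs: the integrin subunits Itga7 and Itgb1, the cadherins Cdh15 and Cdh2, the immunoglobulin protein Vcam1, the syndecans Sdc3 and Sdc4, the sialomucin Cd34, the calcitonin receptor gene Calcr and the dystroglycan gene Dag1. All 10 were found among the 25899 genes of the expression table, with 1 row each.

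MuSCs came from extraocular muscles (EOM, the muscles that move the eye, of cranial mesoderm) and from the tibialis anterior (TA, a limb muscle). The 10 donors were Tg:Pax7-nGFP mice (male littermates per the study's methods), in which nuclear GFP is driven by regulatory sequence of Pax7. They were aged 7.6 weeks in Experiment 1 and 7 weeks in Experiment 2. Per those methods, viable cells were gated by size, granulosity and GFP intensity. In each pre-graft library 500 GFP+ cells were sorted. EOM and TA cells of 1 donor were then placed in separate TA muscles, injured beforehand with cardiotoxin, of the same Rag2-/-;γC-/- mouse, which lacks lymphocytes. GFP+ cells were sorted again at day 21 per the labels, giving the EOM and TA grafts. The study's methods give a range of weeks that includes this day, while its results give a later time. Of 40 RNA libraries 30 passed the quality table of the study: 8 EOM and 8 TA pre-graft libraries and 7 EOM and 7 TA grafts. Of these, 7 were of Experiment 1 and 23 of Experiment 2, and no library of donor 1 of Experiment 1 passed. The grafts held 9 to 60 sorted cells in EOM, apart from 1 that held more, and 16 to 67 in TA; these are the labels' numbers, and the study's quality table gives higher ones for some grafts. Values are log2 RPM, the read number of a gene scaled to the depth of its library, and a difference of 1 is a 2-fold change. The 30 libraries had 3326270 to 14402975 reads, with 963432 to 4169357 on listed genes, so that 1 read of a gene was 0.350 to 1.55 RPM; a gene without a read has the lowest value of its library.

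The labelled cell type was met before grafting and less so after it. The summed level of 8 MuSC markers (Pax7, Myf5, Myod1, Chrdl2, Fgfr4, Des, Musk and Msc) was 5250 to 7498 RPM in EOM and 5511 to 9352 RPM in TA pre-graft libraries, but 301 to 5204 RPM in EOM grafts and 180 to 4996 RPM in TA grafts. Pax7 had a read in every library, down to 11 reads in a TA graft. The sum of 8 endothelial markers (Pecam1, Cdh5, Kdr, Tie1, Emcn, Cldn5, Esam and Egfl7) was 4.62 to 494 RPM in EOM and 5.54 to 2342 RPM in TA pre-graft libraries, and 134 to 5723 RPM in EOM grafts and 1157 to 6564 RPM in TA grafts; no endothelial marker was without a read throughout a group. The median share of mitochondrial reads rose from 3.56% (EOM) and 10.7% (TA) to 33.04% and 25.3%. Fewer cells of a type and less RNA per cell cannot be told apart in such bulk samples. The whole table moved too: the median difference of all genes tested was -1.09 on the log2 scale in TA and -1.48 in EOM after grafting, and -0.30 between TA and EOM pre-graft libraries, so each change after grafting is also given relative to this median.

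Before grafting, 8 of the 10 genes were abundant in both muscles. Per kilobase of exon, on the log2 RPM per kb scale, Sdc4 stood first in every group, at 11.9 ± 0.20 (SD, n = 8) in EOM and 11.9 ± 0.28 (n = 8) in TA pre-graft MuSCs. Dag1 came next in both, lower than Sdc4 by 4.33 in EOM and 4.27 in TA. Cdh15, Calcr, Vcam1, Itgb1, Cd34 and Itga7 followed in EOM between 6.87 and 5.82. Calcr, Vcam1 and Itgb1 could not be ordered there, since Calcr lay above Vcam1 in 4 of 8 libraries and Vcam1 above Itgb1 in 4 of 8. Sdc3 was ninth and Cdh2 last in all 4 groups. Sdc3 and Cdh2 were 7.19 ± 1.48 (SD, n = 8) apart in EOM, but 0.90 ± 2.16 apart in TA pre-graft MuSCs, a gap smaller than its spread. Between the other neighbours of the TA order the gap exceeded its SD for Sdc4 and Dag1, Dag1 and Cdh15, Cdh15 and Vcam1, Calcr and Itga7, Itga7 and Cd34, and Cd34 and Sdc3.

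**Figure D1:**
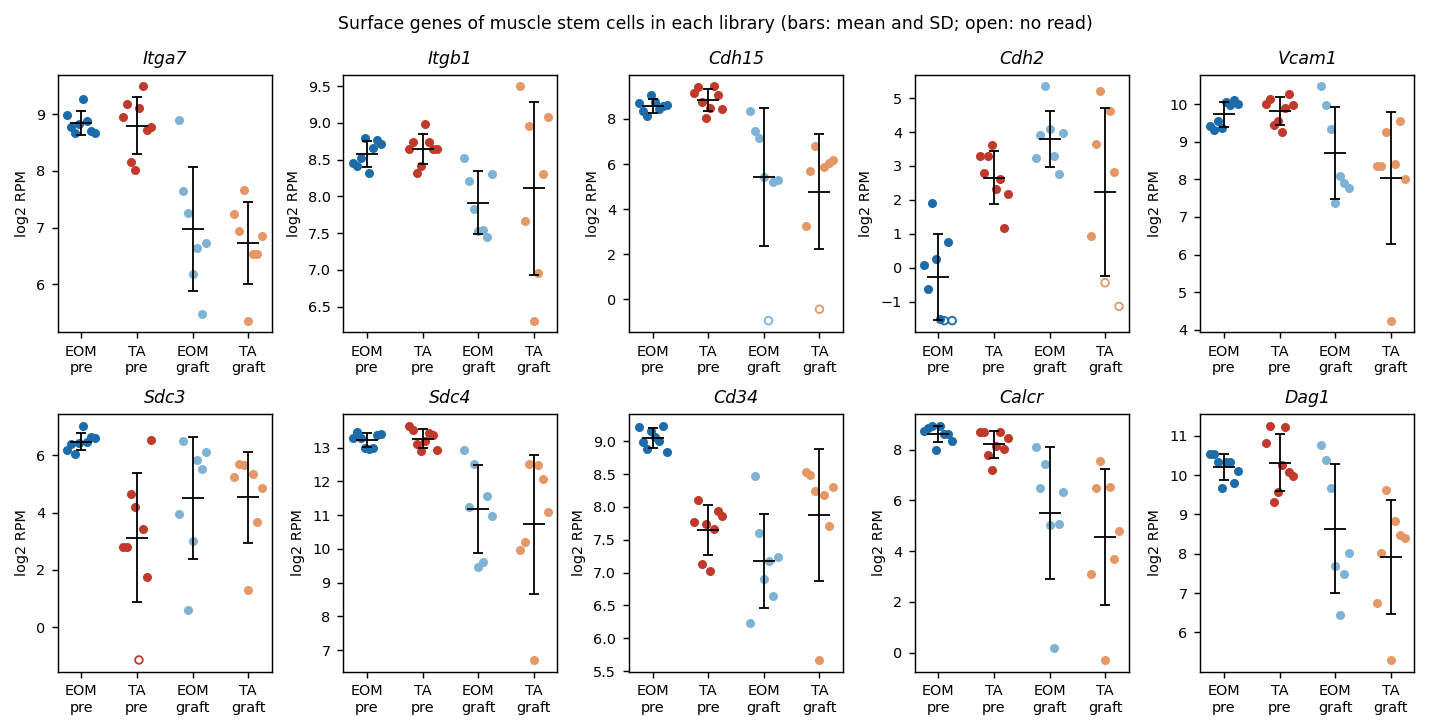
Level of each of the 10 surface genes (y axis, log2 RPM) in the 30 libraries, grouped on the x axis as EOM and TA pre-graft libraries and grafts. Points are libraries, open points libraries without a read, and bars the mean and SD; Cd34 and Sdc3 are higher and Cdh2 lower in EOM than in TA before grafting, and the graft libraries spread more widely.

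TA and EOM MuSCs were first compared before grafting, which asks how far the surface genes differ between a cranial and a limb muscle. The genes Cdh2, Sdc3 and Cd34 differed and the other 7 did not pass the test. Cdh2 was higher in TA, at a median of 2.71 log2 RPM against -0.27, and Sdc3 and Cd34 were higher in EOM, at medians of 6.45 against 3.13 and 9.04 against 7.75. To be called, a gene needed a limma adjusted p below 0.05 together with more than a 2-fold difference. Thus 1 of 10 was called higher in TA, where 1.26% of the 13217 genes tested were, and 2 of 10 higher in EOM, where 3.31% of all genes were. The other 7 genes had log2 fold changes of TA over EOM between -0.42 (Calcr, SE 0.20) and 0.28 (Cdh15, SE 0.19), against -0.30 for the median gene. Only Cd34 had ranges that did not overlap between the muscles, as did 2.28% of all genes tested. Of 8 endothelial markers 1, Cdh5, was called higher in TA, with a log2 fold change of 4.09 (SE 1.19). It was not called by edgeR (3.39) or DESeq2 (3.33). Of 7 myofibre markers 2 were called higher in TA. Their summed levels were 24.6 to 282 RPM in TA and 8.42 to 51.3 RPM in EOM. Of 8 MuSC markers 2 were called higher in TA and 1 higher in EOM. Of the other lists 1 of 5 Schwann cell markers and 1 of 7 fibro-adipogenic markers were called higher in EOM, 1 of 7 mural markers higher in TA and 0 of 4 haematopoietic markers either way; the part of these cell types in the difference of the 3 genes was not tested.

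Cd34 is the sialomucin long used to enrich quiescent MuSCs and is also made by endothelial and fibro-adipogenic cells. In EOM pre-graft libraries it ran from 8.83 to 9.24 log2 RPM with a median of 9.04, and in TA from 7.03 to 8.10 with a median of 7.75. Every EOM library lay above every TA library, and EOM exceeded TA in 7 of 7 donors with both libraries, by 0.89 to 2.02. The level in TA was 2.63-fold lower (log2 fold change -1.39, SE 0.15, limma adjusted p = 1.81e-06). It was -1.50 in Experiment 2 alone and -1.10 in Experiment 1, which held 2 TA and 3 EOM libraries. The endothelial sum was not higher in EOM, with medians of 61.4 RPM there and 335 RPM in TA. The fibro-adipogenic sum (Pdgfra, Ly6a, Dcn, Lum, Dpt, Col1a1, Col3a1 and Gsn) was 3357 to 6447 RPM in EOM and 3067 to 5656 RPM in TA pre-graft libraries. Its genes were not alike: median levels in EOM and TA were 2343 and 1322 RPM for Dpt, 53.5 and 0.279 RPM for Dcn, 13.6 and 0 RPM for Lum, 8.88 and 0.279 RPM for Col1a1, and 0.788 and 0 RPM for Pdgfra. They were closer for Col3a1 (838 and 744 RPM) and Gsn (1844 and 1676 RPM), and Ly6a was lower in EOM (25.8 and 63.2 RPM). The part of such cells in the Cd34 difference was not tested.

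Sdc3, a syndecan that carries heparan sulfate and takes part in the return of MuSCs to quiescence, was even in EOM and uneven in TA. It ran from 6.05 to 7.04 log2 RPM in EOM, with 123 to 377 reads, and from -1.14 to 6.52 in TA, with 0 to 226 reads. All TA libraries but 1 lay below the lowest EOM library; the exception was donor 6 of Experiment 2, with 226 reads. TA was lower in 7 of 7 donors, by 0.08 to 4.91. The level in TA was 10.2-fold lower (log2 fold change -3.35, SE 0.68, limma adjusted p = 0.0029). In Experiment 2 alone it was -3.40 with a limma adjusted p of 0.055, in Experiment 1 it was -3.41, and edgeR on recovered reads gave -1.78 (adjusted p = 0.10), so the call was lost in Experiment 2 alone and with edgeR.

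Cdh2, or N-cadherin, joins MuSCs to the myofibre and was the only one of the 10 called higher in TA. It was rare, with 0 to 7 reads in EOM and 4 to 29 reads in TA pre-graft libraries. Values were -1.56 to 1.92 log2 RPM in EOM, where 2 libraries had no read, and 1.16 to 3.61 in TA; 7 of 8 TA libraries lay above all EOM libraries. TA exceeded EOM in 7 of 7 donors, by 0.41 to 5.12. The level was 7.68-fold higher in TA (log2 fold change 2.94, SE 0.62, limma adjusted p = 0.0038), and the fold rests on the value given to libraries without a read, being 2.02 on the log2(RPM + 1) scale. It was 3.26 in Experiment 2 and 2.58 in Experiment 1. With the libraries that failed the quality table it was 1.45 (limma adjusted p = 0.54); among them were an EOM library of donor 3 of Experiment 2, with 28 reads, and a nearly empty EOM library in which a gene without a read has the value 10.74.

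The promoters of Cd34 and Sdc3 are shown because these genes were higher in EOM, and those of Cdh15 and Calcr because of the 10 genes these fell most in TA grafts, a choice made after the values were seen; 7 of 9 genes searched had a promoter entry. The stretches run from 250 bases before to 50 after the start site (RefSeq, GRCm38.p6), 5′ to 3′ on the strand of the gene, with each E-box of the letters CANNTG, the motif of myogenic factors, in capitals.
Cd34: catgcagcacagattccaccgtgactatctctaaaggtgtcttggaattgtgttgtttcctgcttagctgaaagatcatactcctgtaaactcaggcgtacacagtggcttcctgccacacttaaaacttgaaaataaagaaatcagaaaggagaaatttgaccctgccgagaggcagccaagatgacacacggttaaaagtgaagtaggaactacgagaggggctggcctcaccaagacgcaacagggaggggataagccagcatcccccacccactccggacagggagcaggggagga
Sdc3: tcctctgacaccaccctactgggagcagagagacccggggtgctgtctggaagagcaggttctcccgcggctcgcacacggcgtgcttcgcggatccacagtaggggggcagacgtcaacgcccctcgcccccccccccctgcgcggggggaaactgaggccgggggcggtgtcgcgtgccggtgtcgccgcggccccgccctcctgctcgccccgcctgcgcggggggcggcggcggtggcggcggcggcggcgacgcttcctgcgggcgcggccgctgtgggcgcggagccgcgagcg
Cdh15: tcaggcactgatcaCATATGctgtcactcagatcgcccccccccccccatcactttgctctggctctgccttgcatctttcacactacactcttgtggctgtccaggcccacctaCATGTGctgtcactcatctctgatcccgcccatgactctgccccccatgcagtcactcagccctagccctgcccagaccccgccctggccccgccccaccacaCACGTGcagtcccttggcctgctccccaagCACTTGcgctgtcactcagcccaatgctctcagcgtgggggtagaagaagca
Calcr: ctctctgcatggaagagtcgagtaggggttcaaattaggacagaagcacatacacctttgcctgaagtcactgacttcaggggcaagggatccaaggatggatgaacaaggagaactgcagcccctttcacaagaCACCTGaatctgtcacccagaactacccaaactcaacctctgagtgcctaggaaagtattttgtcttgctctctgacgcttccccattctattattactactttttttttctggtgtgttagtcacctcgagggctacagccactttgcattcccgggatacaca
They lie at chr1:194938571-194938870 (+), chr4:130792287-130792586 (+), chr8:122848124-122848423 (+) and chr6:3764664-3764963 (-), and the start site in each is the gene's start in the expression table. The Cdh15 stretch held 4 E-boxes, the Calcr stretch 1 and the Cd34 and Sdc3 stretches 0, while 72.3% of 32851 mouse promoters of this length held at least 1. The letters TGGGAA, of the Notch effector RBPJ, were in none of the 4 on either strand, and in 25.6% of all promoters. The Sdc3 stretch was 77.7% G and C with 44 CG dinucleotides, and that of Cd34 was 50% with 7; the median promoter had 52.7% and 7. Such letter matches describe the sequence and are not sites.

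**Figure D2:**
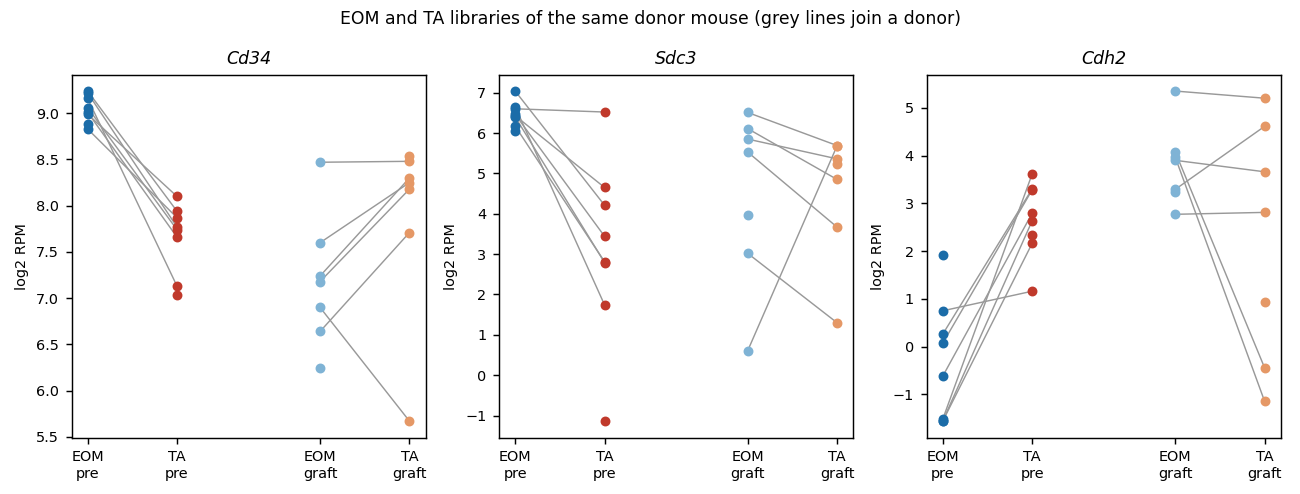
Cd34, Sdc3 and Cdh2 (y axis, log2 RPM) in EOM and TA libraries before and after grafting, with a grey line joining 2 libraries of 1 donor mouse. Before grafting the lines of all 7 donors run down for Cd34 and Sdc3 and up for Cdh2; among the 6 donors with both grafts they run in either direction.

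Grafting was compared next, by setting the MuSCs recovered from the host TA against those sorted before, in each muscle of origin. In TA, 6 of the 10 genes were called lower and 0 higher; 30.9% of the 13076 genes tested were lower and 3.79% higher. In EOM, 8 of 10 were called lower and 1, Cdh2, higher; here 55.8% of 13094 genes were lower and 3.51% higher. The median change over the 10 genes was -1.93 in TA and -1.87 in EOM, against -1.09 and -1.48 for all genes. The comparisons in TA and in EOM share no library. In TA the ranges of 3 of 10 genes did not overlap, Itga7, Cdh15 and Sdc4, as for 5.19% of all genes; in EOM those of 3, Cdh2, Sdc4 and Cd34, as for 11.3%. When each library was centred on its own median, 5 genes were called lower in TA (Itga7, Cdh15, Sdc4, Calcr and Dag1) with Cd34 higher, and in EOM Cdh2 alone was called, higher. Without grafts under 20 cells Vcam1 and Dag1 lost the call in EOM (-0.63 and -0.94). MuSC markers fell with these genes (8 of 8 called lower in TA, 7 of 8 in EOM) and endothelial markers rose (8 of 8 called higher in both). Of 7 myofibre markers 2 were called higher in TA and 6 in EOM, with summed levels of 116 to 543 and 12.2 to 1307 RPM in grafts, and of 7 mural markers 2 were higher in TA, and 2 higher and 2 lower in EOM. Of 8 fibro-adipogenic markers 4 were higher and 2 lower in TA, and 1 higher and 2 lower in EOM; of Schwann cell markers 0 of 4 moved in TA and 3 of 5 were lower in EOM, and of haematopoietic markers 1 of 3 was higher in TA and 1 of 5 lower in EOM. The part of these cell types in the changes was not tested.

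**Figure D3:**
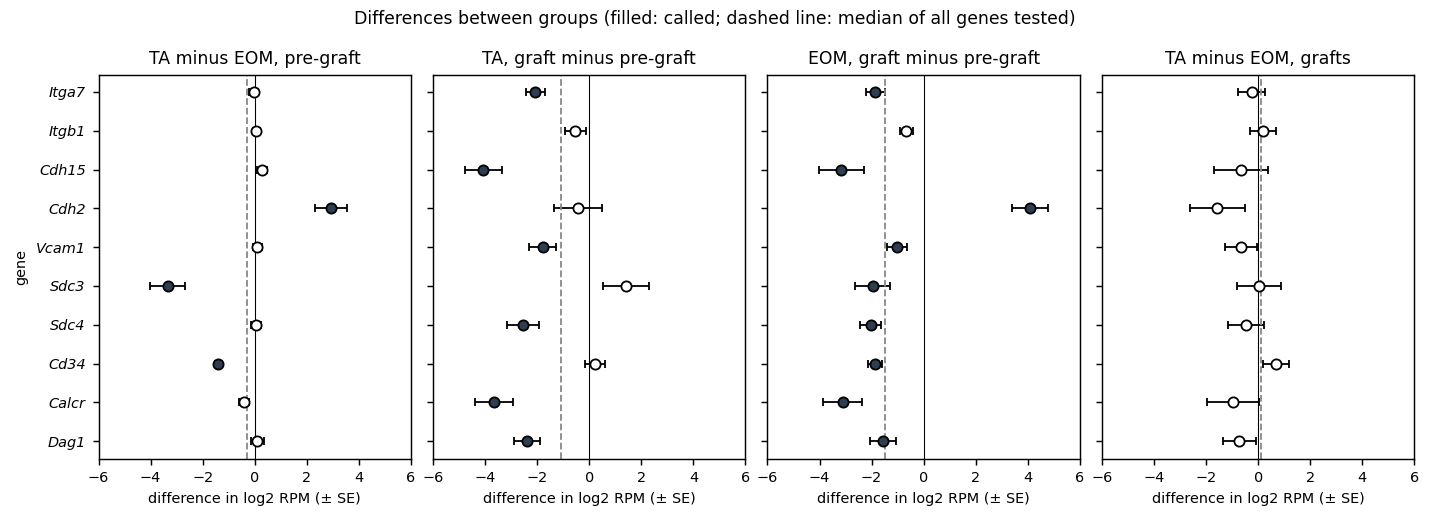
Difference in log2 RPM with its SE (x axis) of each gene (y axis) in 4 comparisons, with filled points for genes called and a dashed line at the median of all genes tested. Most genes lie left of 0 after grafting, Cdh2 in EOM lies far right, and no gene is called between the grafts.

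Itga7 and Itgb1 form the laminin receptor of muscle and of its stem cells. Itga7 (chr10:128933813-128958277, +) ran from 8.02 to 9.49 log2 RPM in TA pre-graft libraries and from 5.36 to 7.66 in TA grafts, with medians of 8.86 and 6.85. All TA grafts lay below all TA pre-graft libraries, and the change was -2.07 on the log2 scale (SE 0.35, limma adjusted p = 5.54e-04), or -0.98 relative to the median gene. In EOM it ran from 8.66 to 9.27 before and from 5.47 to 8.89 after grafting, with only the graft of donor 4 of Experiment 1 inside the earlier range. In EOM the log2 fold change was -1.87 (SE 0.37, limma adjusted p = 8.31e-04), or -0.39 relative to the median gene. Itgb1 (chr8:128685654-128733200, +), the beta subunit that many integrins share, did not pass. Its log2 fold changes were -0.53 (SE 0.40) in TA and -0.66 (SE 0.24) in EOM, which is 0.55 and 0.81 above the median gene. In EOM the limma adjusted p was 0.021 with a change under the 2-fold limit, and with centring, edgeR or DESeq2 the sign turned, to 0.59, 0.49 and 0.60. In TA grafts Itgb1 spread from 6.31 to 9.50, on both sides of the pre-graft range of 8.32 to 8.98.

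Other integrin subunits did not all move as Itga7 did. Of 15 tested in TA, 4 were called higher and 0 lower: Itga6 (log2 fold change 3.27, SE 0.78), Itga9 (2.79, SE 1.03), Itgb4 (2.62, SE 0.99) and Itga1 (1.61, SE 0.58). In EOM, of 13 tested, Itga6 was called higher (4.29, SE 1.24) and Itga8 (-3.40, SE 0.80) and Itgb8 (-2.07, SE 0.87) lower. Over all genes tested, 3.79% were called higher and 30.9% lower in TA, and 3.51% and 55.8% in EOM. Itga9 and Itgb4 were called by neither edgeR nor DESeq2, Itgb4 not with the donor as replicate block (2.50) and Itga1 not by edgeR, and with centring 7 of 15 were higher in TA, and 3 of 13 higher and 0 lower in EOM. Itga6 and Itgb4 pair as a laminin receptor of epithelia, and Itga6 is also found on endothelium. Of 22 genes of the complex that links integrins to actin, 2 were called higher in TA, Parvb (3.40, SE 0.91) and Fblim1 (2.84, SE 0.97), and 4 lower, among them Zyx (-2.16, SE 0.62). In EOM 3 of 21 were higher, Parvb, Lims2 and Fblim1, and 7 lower. These counts stand beside the same shares of all genes, 30.9% lower in TA and 55.8% in EOM. With centring 0 were lower in TA and 1 in EOM. For single genes, edgeR did not call Fblim1 in TA, and the replicate block ended the call of Lims2 (2.65). Before grafting no integrin subunit of 12 tested and no gene of 22 of the adhesion complex was called between TA and EOM. Of all genes 1.26% were called higher in TA and 3.31% higher in EOM there.

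Cdh15, or M-cadherin, a cadherin of MuSCs and myoblasts, fell most of the 10 genes in TA (chr8:122848374-122867397, +). It ran from 8.05 to 9.45 log2 RPM before and from -0.44 to 6.82 after grafting in TA, where the lowest graft had no read. The ranges did not overlap, and the log2 fold change was -4.08 (SE 0.71, limma adjusted p = 5.72e-04), or -2.99 relative to the median gene. In EOM it ran from 8.11 to 9.08 before and from -0.95 to 8.33 after, with no read in the graft of donor 4 of Experiment 2, which held 9 cells. There it was -3.16 (SE 0.87, limma adjusted p = 0.0059), or -1.68 relative to the median gene, and -2.10 without that graft. Without grafts under 20 cells it was -1.89 (limma adjusted p = 0.0029) in EOM and -3.31 in TA. The graft of donor 4 of Experiment 1, the one with most cells, kept 8.33, inside the pre-graft range.

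Cdh2 took the opposite course in EOM. All 7 EOM grafts, at 2.77 to 5.35 log2 RPM and 8 to 81 reads, lay above all 8 EOM pre-graft libraries, and the gene was higher in 6 of 6 donors, by 2.03 to 6.87. The rise was 17.0-fold (log2 fold change 4.08, SE 0.68, limma adjusted p = 2.87e-04), 5.56 above the median gene, and it rests on the value given to libraries without a read, being 8.21-fold on the log2(RPM + 1) scale (3.04). It was also called by edgeR (4.96) and DESeq2 (5.20). With the libraries that failed the quality table it was 2.33 and not called (limma adjusted p = 0.087). In Experiment 2 alone the log2 fold change was 4.62, and the single EOM graft of Experiment 1 lay 2.78 above its 3 pre-graft libraries. In TA the grafts spread from -1.14 to 5.20, with 0 to 71 reads, 3 below and 3 above the pre-graft range. There the log2 fold change was -0.42 (SE 0.92, limma adjusted p = 0.72), or 0.66 above the median gene, and it turned to 0.79 without the grafts under 20 cells.

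Among 11 further cadherins and catenins tested, the endothelial cadherin Cdh5 was called higher in both (log2 fold change 3.05, SE 0.84, in TA and 6.37, SE 1.04, in EOM). In EOM Cdh4 (-4.42, SE 0.79), Ctnnb1 (-1.30, SE 0.41) and Ctnnd1 (-1.24, SE 0.43) were called lower, and in TA 0 were lower. Over all genes, 55.8% were called lower in EOM and 30.9% in TA, and 3.51% and 3.79% higher. With centring Ctnnb1 and Ctnnd1 were at -0.051 and 0.0062 and lost the call, edgeR did not call Cdh4 in EOM, and Ctnnd1 was also lost with the replicate block (-0.83). Cdh4, or R-cadherin, was also the cadherin of this list called higher in EOM than in TA before grafting (-2.77, SE 0.30).

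Vcam1, a ligand of the integrin of Itga4 and Itgb1 that marks quiescent MuSCs and is also made by activated endothelium, lies at chr3:116110020-116129688 (-). In TA it ran from 9.25 to 10.3 log2 RPM before and from 4.24 to 9.55 after grafting, and was lower in 7 of 7 donors. It changed by -1.79 on the log2 scale (SE 0.52, limma adjusted p = 0.013), or -0.71 relative to the median gene. This change was -0.90 with a limma adjusted p of 0.076 when libraries were centred, and edgeR gave -0.69 (adjusted p = 0.20). Without the TA graft of donor 3 of Experiment 2, the lowest, it was -1.16, and without grafts under 20 cells -1.03, both still called. In EOM it ran from 9.32 to 10.1 before and from 7.36 to 10.5 after grafting, with 1 graft above and 4 below the pre-graft range. The change of -1.03 (SE 0.39, limma adjusted p = 0.030) stood 0.45 above the median gene, and the sign turned with centring, to 0.22. The call in EOM held in 7 of 15 fits that left out a library, with log2 fold changes of -1.32 to -0.80. It was lost without the EOM grafts of donors 3, 4, 5 or 6 or the EOM pre-graft libraries of donors 2, 4, 5 or 6, all of Experiment 2, and with the donor as replicate block (-0.88, limma adjusted p = 0.12).

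Cd34 (chr1:194938821-194961292, +) was the one gene of the 10 whose change differed between the muscles of origin past the limits used. In EOM it ran from 8.83 to 9.24 log2 RPM before and from 6.24 to 8.47 after grafting, with all grafts below all pre-graft libraries. This gave a log2 fold change of -1.87 (SE 0.28, limma adjusted p = 1.41e-04), with all 6 donors lower, or -0.39 relative to the median gene; with centring it was -0.62 (limma adjusted p = 0.17). In TA 5 of 7 grafts lay above the pre-graft range of 7.03 to 8.10, and 1, of 16 cells, at 5.67, below it. The TA change was 0.22 (SE 0.39, limma adjusted p = 0.65), 1.31 above the median gene, and called higher at 1.12 with centring. The change in EOM minus that in TA uses the pre-graft libraries in which Cd34, Cdh2 and Sdc3 already differed. It is thus not separate from that difference. For Cd34 it was -2.09 (SE 0.48, limma adjusted p = 0.048), or 1 of 10 genes called where 0.208% of 14428 were. That call was lost with the donor as replicate block (-1.89, adjusted p = 0.14), in Experiment 2 alone (-1.92, adjusted p = 0.39) and in 28 of 30 fits without 1 library, with differences of -2.46 to -1.93; it held only without the EOM graft of donor 1 or the TA graft of donor 3 of Experiment 2. For Cdh2 the change in EOM exceeded that in TA by 4.51 (SE 1.15, limma adjusted p = 0.11) and for Sdc3 it was lower by 3.38 (SE 1.15, limma adjusted p = 0.45), so neither was called, though Cdh2 was with centring (4.92, limma adjusted p = 0.046) and DESeq2 (3.90, adjusted p = 0.035).

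Among 15 other sialomucins, immunoglobulin proteins and tetraspanins, 3 were called higher and 4 lower in TA after grafting, and 3 higher and 8 lower in EOM, beside 30.9% and 55.8% of all genes lower and 3.79% and 3.51% higher; with centring 3 were lower in TA and 2 in EOM. Emcn, the endothelial endomucin and a sialomucin as Cd34 is, rose in both (3.39, SE 0.85, and 4.16, SE 1.20), and Icam2, likewise of endothelium, rose in EOM (4.04, SE 1.16). Podxl2 fell in TA (-4.17, SE 0.82), Ncam1 fell in both (-2.96, SE 0.51, and -3.25, SE 0.37), Cd82 fell in TA (-2.38, SE 0.53) and Alcam in EOM (-2.92, SE 0.75). Cd82 and Alcam were called by neither edgeR nor DESeq2, and Alcam not with centring. Before grafting Cd24a (-1.63, SE 0.34) and the neural cell adhesion gene Ncam1 (-1.01, SE 0.20) were called higher in EOM, but Ncam1 not with centring (-0.77), edgeR (-0.75) or DESeq2 (-0.74).

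Sdc4, the syndecan used as a surface marker of MuSCs (chr2:164424247-164443887, -), gave 7101 to 28699 reads in pre-graft libraries. It fell in both muscles: from 12.9 to 13.7 log2 RPM before to 6.71 to 12.5 after in TA, and from 13.0 to 13.4 to 9.47 to 12.9 in EOM. Grafts and pre-graft libraries did not overlap in either. The log2 fold change was -2.54 in TA (SE 0.61, limma adjusted p = 0.0048) and -2.04 in EOM (SE 0.41, limma adjusted p = 9.75e-04), which is -1.45 and -0.56 relative to the median gene. With edgeR it was -1.20 in TA (adjusted p = 0.079) and -0.69 in EOM (adjusted p = 0.15), both without a call.

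Sdc3 (chr4:130792537-130826319, +) fell in EOM, from 6.05 to 7.04 log2 RPM before to 0.60 to 6.51 after grafting, with 5 of 7 grafts below the earlier range. The log2 fold change was -1.96 (SE 0.66, limma adjusted p = 0.016), or -0.49 relative to the median gene, and it was not called in Experiment 2 alone (-2.03, limma adjusted p = 0.050); with edgeR and DESeq2 the sign turned, to log2 fold changes of 0.11 and 0.23. In TA all 7 grafts, at 1.30 to 5.69, lay inside the wide pre-graft range and 6 of 7 donors were higher. The log2 fold change there was 1.41 (SE 0.90, limma adjusted p = 0.20), or 2.50 above the median gene. Of 21 other heparan sulfate proteoglycans and enzymes, 8 in TA and 14 in EOM were called lower and 0 higher, beside 30.9% and 55.8% of all genes lower, and with centring 2 were lower in each. Hs6st2, a heparan sulfate 6-O-sulfotransferase, fell by 4.11 in TA (SE 0.80) and 2.52 in EOM (SE 0.57), and the glypican Gpc4 by 2.50 (SE 0.82) and 4.15 (SE 0.75). With centring Hs6st2 lost the call in EOM and Gpc4 in TA. Before grafting Sdc1 was the only one of them called, higher in EOM than in TA (log2 fold change -3.95, SE 0.62).

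Calcr (chr6:3685677-3764713, -) had 271 to 1374 reads before grafting. It ran from 7.19 to 8.71 log2 RPM in TA pre-graft libraries and from -0.29 to 7.55 in TA grafts, with 6 of 7 grafts below. In EOM it ran from 7.97 to 8.94 before and from 0.20 to 8.10 after, again with 6 of 7 below. The log2 fold change was -3.66 in TA (SE 0.74, limma adjusted p = 0.0018) and -3.11 in EOM (SE 0.75, limma adjusted p = 0.0028), or -2.57 and -1.63 relative to the median gene. Without grafts under 20 cells it was -2.74 in TA and -1.94 in EOM, both called. With centring it was -1.86 in EOM (limma adjusted p = 0.063). Of its 10 partners and protein kinase A subunits, 4 were called lower and 1 higher in TA, and 6 lower and 0 higher in EOM, beside 30.9% and 55.8% of all genes lower. Gnas, which encodes the G protein subunit that activates adenylyl cyclase, fell by 2.47 in TA (SE 0.43) and 2.13 in EOM (SE 0.35), the latter without a call under centring (-0.88). Calcrl, the receptor-like gene also made by endothelium, was higher in TA grafts (2.63, SE 0.76) and called lower in EOM grafts (-2.07, SE 0.72). The EOM call was lost with centring (-0.82) and the replicate block, and the sign turned with edgeR (0.13) and DESeq2 (0.31). The difference of these changes was called (-4.70, SE 1.08, limma adjusted p = 0.048), but not with centring, edgeR, DESeq2 or the donor as replicate block (-4.26). Before grafting Calcrl was called higher in EOM (-2.38, SE 0.67), but not with centring (-2.14), edgeR (-1.17) or DESeq2 (-1.15).

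Dag1 encodes dystroglycan, the laminin receptor that links the basal lamina to dystrophin (chr9:108205955-108263924, -). In TA it ran from 9.31 to 11.3 log2 RPM before and from 5.30 to 9.63 after grafting, with 6 of 7 grafts below. Dag1 changed by -2.39 on the log2 scale (SE 0.49, limma adjusted p = 0.0018), or -1.31 relative to the median gene. In EOM it ran from 9.67 to 10.5 before and from 6.45 to 10.8 after, with 5 grafts below and 1 above. Its log2 fold change of -1.57 (SE 0.49, limma adjusted p = 0.012) was -0.093 relative to the median gene, and it was -0.94, not called, without grafts under 20 cells (limma adjusted p = 0.077). Of 20 tested genes of the dystrophin complex and of dystroglycan glycosylation, 10 in TA and 16 in EOM were called lower and 0 higher, beside 30.9% and 55.8% of all genes lower, and with centring 4 were lower in each. Before grafting Dtna, for the dystrophin partner alpha-dystrobrevin, was called higher in EOM (-2.70, SE 0.67), though not by edgeR (-1.59) or DESeq2 (-1.59). The mannosyltransferase genes Pomt1 (-3.80, SE 0.78) and Pomt2 (-3.32, SE 0.79), which begin the sugar chain that binds laminin, and the sarcoglycan gene Sgca (-3.03, SE 0.68) led in TA. In EOM Dtna (-3.57, SE 0.72) and Dtnb (-3.44, SE 0.60), of the cytoplasmic side of the complex, were among those lower. Of these 5 genes in the grafts, edgeR called Pomt1 alone.

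Of 15 other surface receptors of MuSCs 7 were called lower in TA and 11 in EOM, with 0 higher, beside 30.9% and 55.8% of all genes lower; with centring 4 were lower and 2 higher in TA, and 1 lower and 2 higher in EOM. Fgfr4 (-4.26, SE 0.88, in TA and -3.33, SE 0.72, in EOM) and Megf10 (-3.34, SE 0.76, and -2.54, SE 0.56) were among them. Neither was called by edgeR in TA, and Megf10 lost the call in EOM with centring. Tek (-1.45, SE 0.30) and Igf1r (-1.18, SE 0.26) were called higher in EOM than in TA before grafting. Igf1r was not called with centring (-0.94), the replicate block (-0.93), edgeR (-0.90) or DESeq2 (-0.89), and Tek not by DESeq2.

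The grafts differed among themselves. The TA graft of donor 3 of Experiment 2, with 16 cells, 46.8% mitochondrial reads and 180 RPM of MuSC markers, had 9 of the 10 genes below the TA pre-graft range. The EOM grafts of donors 3, 4 and 5 of Experiment 2 also had 9 of 10 below. They held 16, 9 and 60 cells, with 59.6%, 37.1% and 45.3% mitochondrial reads and 682, 301 and 1593 RPM of MuSC markers. At the other end, the EOM graft of donor 4 of Experiment 1 (the most cells, 3.85% mitochondrial reads, 5204 RPM of MuSC markers, 134 RPM of endothelial markers) and the TA graft of donor 2 of Experiment 2 (67 cells, 16.4%, 4996 RPM and 3984 RPM) had 3 of 10 below. The genes below in the former were Sdc3, Sdc4 and Cd34, and in the latter Itga7, Cdh15 and Sdc4. Sdc4 was the gene below the range in all 14 grafts. The part of cell number, mitochondrial reads and markers in these values was not tested.

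**Figure D4:**
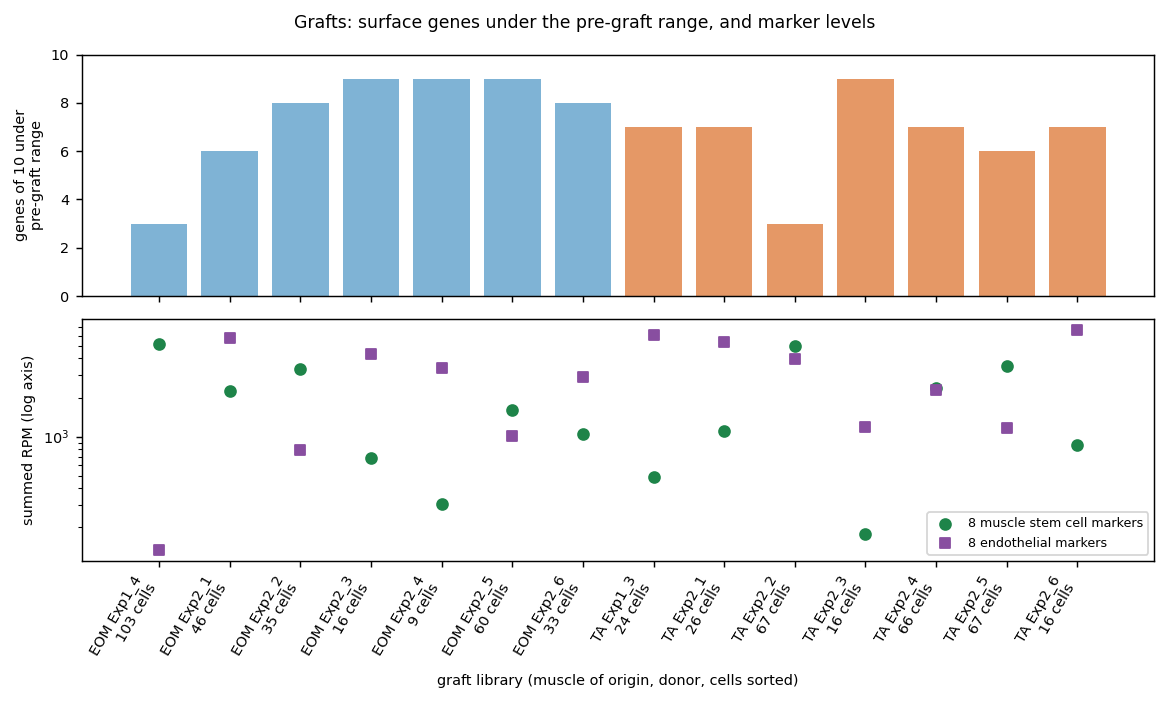
Upper panel, number of the 10 genes (y axis) that lie under the pre-graft range of the same muscle in each graft library, EOM in blue and TA in orange. Lower panel, summed level of 8 MuSC and 8 endothelial markers (y axis, RPM, log axis); the 2 grafts with only 3 genes under the range have the highest MuSC marker sums.

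Finally, EOM and TA cells were compared after both had spent the same time in a limb muscle. None of the 10 genes was called, nor was any of the 12377 genes tested by limma (0%), though 452 genes had an unadjusted p under 0.05 and DESeq2 called 3 and edgeR 0. All 10 genes had a limma adjusted p of 1.00. The ranges of all 10 overlapped, as they did for all genes but 0.0162%. The log2 fold change of TA over EOM was 0.69 (SE 0.50) for Cd34, 0.03 (SE 0.86) for Sdc3 and -1.57 (SE 1.05) for Cdh2. In grafts of the same donor TA exceeded EOM in 5 of 6 donors for Cd34, in 1 of 6 for Sdc3 and in 2 of 6 for Cdh2. With SEs between 0.49 and 1.05, a 2-fold difference was not detectable among these grafts.

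The genes whose values over the 16 pre-graft libraries were most like those of the 3 genes that differed are given as a description. The split between muscles enters each correlation. For Cd34 they were Pdgfc (Pearson r = 0.951), Rcan2 (0.947) and Bgn (0.941), at medians of 37.6, 287 and 516 RPM in EOM and 1.24, 71.6 and 120 RPM in TA. For Sdc3 they were Synpo (0.940), Mcam (0.938) and Fbln5 (0.920), and for Cdh2 Spock3 (0.869), Ankrd29 (0.855) and the homeobox gene Hoxa7 (0.854). Of these Mcam was not itself called between TA and EOM (log2 fold change -1.18, limma adjusted p = 0.063).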

How the data were processed

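RNA was made with the G&T method and sequenced as paired-end reads. Per the study's methods the authors trimmed with Trim Galore 0.4.4, mapped with HISAT2 2.1.0 to GRCm38 and deposited log2 RPM per gene from SeqMonk; strand was not used (49.6% to 50.5% sense reads in passing libraries), so overlapping genes cannot be told apart. The deposited quality table gave total read counts and the percent of reads in exons and in mitochondrial genes. The bisulfite libraries were not analysed here. In a library the lowest log2 RPM stands for 0.9 of a read, and with it 99.9986% of values came out as whole reads (tolerance 0.1). These recovered reads went into edgeR 4.0.16 and DESeq2 1.42.0 as alternatives.

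Genes above 1 log2 RPM in at least 4 libraries of a comparison were fitted with limma 3.58.1 (R 4.3.3), two-sided, with Benjamini-Hochberg adjustment over all genes tested and no donor term; a call needed a limma adjusted p below 0.05 and more than a 2-fold difference. The fit was tested on simulated data that lacked the shift of the whole table seen after grafting, so that test does not bear on the shift. Group medians and SDs are over libraries. The limma p-values measure the spread between libraries within a group, each of another donor mouse. In grafts this spread also holds the host mouse and the number of sorted cells. Libraries with the same experiment and mouse number came from the same donor, and their deviations from the group means correlated by -0.22 to 0.18 over genes. Exon lengths came from GENCODE vM21. Alternatives were another pseudocount, filters, scalings, centring, donor block, experiment, library sets and leaving out each library. All 10 genes were named in each comparison, and of each related list up to 4 called genes with the largest changes; for genes called before grafting, the 3 with the highest Pearson r were named. The members and lists were chosen with earlier results of these data known.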

Additional observations from a re-analysis of the deposited data

Results flagged for a closer look

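Of 40 sets of values (10 genes in 4 groups), 4 held a library far from the rest by Dixon's test. Chance flags about 1 in 20 of independent sets. These sets are not independent, since the genes share libraries and all flags fall in the grafts named next. In the EOM graft of donor 4 of Experiment 2, sorted as 9 cells, Cdh15 was at -0.95 log2 RPM with 0 reads, against 5.20 in the next lowest graft, and Calcr at 0.20 with 2 reads, against 5.02. In the TA graft of donor 3 of Experiment 2, sorted as 16 cells, Vcam1 was at 4.24, against 8.02 in the next lowest graft, and Cd34 at 5.67, against 7.71. Cd34 was also flagged because its change on grafting was called different between muscles, with EOM minus TA at -2.09 (limma adjusted p = 0.048). Only 2 of 30 fits that each dropped a library kept this call. Pairing by donor ended it and edgeR did not give it, whereas centring and DESeq2 retained it.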

How the results depend on the processing

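Of 900 fits without 1 library, over genes and comparisons, 836 kept direction and call, 36 lost a call, 1 gained one and 27 turned the sign; of 630 other alternatives these were 535, 46, 6 and 43. Without 1 library, 3 to 3 of the 10 genes were called before grafting, 6 to 6 in TA grafts, 8 to 9 in EOM grafts, 0 to 0 between grafts and 0 to 1 for the difference in change. In EOM grafts 2 were called with scaling without mitochondrial genes, 1 with centring on library medians, 1 with edgeR and 2 with DESeq2, against 9. For the difference in change 0 were called without a filter, with the donor as replicate block, with experiment as covariate, in Experiment 2 alone, with all libraries or with edgeR, and 2 with centring or DESeq2, against 1. The replicate block, which pairs libraries of 1 donor, otherwise ended, among the 10 genes, only the call of Vcam1 in EOM (-0.88); among the related genes named it ended those of Itgb4 in TA grafts, Lims2, Ctnnd1 and Calcrl in EOM grafts, Igf1r before grafting and Calcrl for the difference in change. The causes were not tested.

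Signs turned as follows, given in the order scaling without mitochondrial genes, centring, edgeR and DESeq2. Before grafting Itga7 was at 0.18, 0.20, 0.21 and 0.22. In TA grafts Itgb1 was at 0.25, 0.36, 0.44 and 0.54, and Cdh2 at 0.36, 0.47, 1.22 and 1.30. In EOM grafts Itgb1 was at 0.40, 0.59, 0.49 and 0.60, Vcam1 at 0.039, 0.22, 0.20 and 0.28, and Sdc3 at 0.11 (edgeR) and 0.23 (DESeq2). Between grafts Sdc3 was at -0.030, -0.082, -0.73 and -0.76, and for the difference in change Itgb1 at 0.15, 0.28, 0.033 and 0.052. In Experiment 2 alone Itgb1 (-0.027) and Vcam1 (-0.17) turned before grafting, Cdh15 (0.10) and Sdc3 (-0.18) between grafts, with the same values under the replicate block, and Itga7 (-0.14), Cdh15 (-0.082) and Calcr (-0.15) in the difference in change. With all libraries Itgb1 was at -0.18 before grafting and Sdc3 at -0.23 between grafts, on the log2(RPM + 1) scale Sdc3 was at -0.013 between grafts, and without grafts under 20 cells Cdh2 was at 0.79 in TA.

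Leaving out 1 library turned signs within these ranges. Before grafting they were -0.14 to 0.067 for Itga7, -0.011 to 0.097 for Sdc4 and -0.033 to 0.24 for Dag1, and in TA grafts -0.92 to 0.14 for Cdh2. Between grafts they were -0.50 to 0.073 for Itga7, -0.038 to 0.49 for Itgb1, -1.70 to 0.23 for Cdh15, -0.62 to 0.57 for Sdc3 and -0.76 to 0.21 for Sdc4. For the difference in change they were -0.12 to 0.45 for Itga7, -0.43 to 0.099 for Itgb1, -0.16 to 0.80 for Sdc4 and -0.26 to 1.44 for Calcr. None of these genes was called in the comparison concerned, except Vcam1 and Sdc3 in EOM grafts. Low counts limit Cdh2 most, with 0 to 7 reads in EOM before grafting.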
